A study of Mus musculus with 6 samples.

Results

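The Myc and Max network was examined in mouse embryonic fibroblast lines as a named set of 10 genes, of 27179 genes in the count tables: Myc, Mycn and Mycl, their shared partner Max, and the antagonists Mxd1, Mxd3, Mxd4, Mxi1, Mnt and Mga. The set is defined by gene name, and all 10 genes were among the 14069 genes with enough counts to be tested. The study asked what CRY1 or CRY2 does to gene expression when other clock repressors are missing. All 3 lines carry the knockout genotype Cry1-/-, Cry2-/-, Per1-/-, Per2-/-, Nr1d1-/- and Nr1d2-/-, called CPN-/-. The parental CPN-/- line received no CRY, the CPN-/- CRY1 line expresses exogenous CRY1, and the CPN-/- CRY2 line expresses exogenous CRY2, in each case from a viral promoter rather than the endogenous one. Each CRY line was grown from a single drug-resistant colony, so the CRY protein and the clone cannot be told apart. No other treatment was given.

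Each line was measured in 2 mRNA-seq libraries, with totals of 25957409 to 36106949 counts. The p-values therefore measure the spread between 2 RNA preparations of a line, not between clones. The 6 knocked out genes still gave 476 to 9498 counts per library, so their totals do not show the lesions. Cry1 was 1.84 log2 units higher in CPN-/- CRY1 than in CPN-/- CRY2, and for Cry2 the log2 fold change was -2.77, as the labels have it. Against CPN-/-, Cry1 stood at 0.57 in CPN-/- CRY1 and -1.27 in CPN-/- CRY2, and Cry2 at -1.37 and 1.4, so part of each gap is a fall below CPN-/-. Fibroblast markers summed to between 10400 and 17100 CPM (counts scaled to library size) in each library, while the epithelial, endothelial, leukocyte and skeletal muscle lists each stayed at or below 2.14 CPM. The 2 CPN-/- libraries differed more than the other pairs: the SD of their log2 difference over genes was 0.435, against 0.232 for CPN-/- CRY1 and 0.245 for CPN-/- CRY2. That difference followed transcript length, with a Spearman correlation across 13246 genes of -0.66 in CPN-/-, 0.18 in CPN-/- CRY1 and -0.27 in CPN-/- CRY2, and genes are not independent replicates. In bulk RNA, fewer cells of a type and less RNA per cell cannot be told apart.

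MYC, MYCN and MYCL are basic helix-loop-helix leucine zipper transcription factors that bind DNA as heterodimers with MAX, at E-boxes such as CACGTG, and raise the transcription of genes for growth and metabolism. MXD1, MXD3, MXD4, MXI1, MNT and MGA also pair with MAX and occupy the same sites. MXD proteins, MXI1 and MNT recruit SIN3 and histone deacetylases to repress transcription, and MGA belongs to a Polycomb-like complex with PCGF6, L3MBTL2 and E2F6. CLOCK-BMAL1, the activator that CRY proteins inhibit, binds the same CACGTG core. Only RNA was measured here.

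RefSeq promoter windows, which run from 250 bases before to 50 bases after an annotated start, matched 9 of the 10 members. The canonical E-box CACGTG, which reads the same on both strands, stood in the windows of Max, Mxd4 and Mnt, which are shown because this is the letter sequence that the network itself binds. Across the genome 7.15% of 32851 windows held it, or 8.09% of 27025 genes with a window. Each stretch is 66 bases of GRCm38.p6, written 5′ to 3′ on the strand of the gene, with the E-box in capitals: Max at chr12:76962216-76962281 on the reverse strand, Mxd4 at chr5:34187894-34187959 on the reverse strand and Mnt at chr11:74830771-74830836 on the forward strand.
Max: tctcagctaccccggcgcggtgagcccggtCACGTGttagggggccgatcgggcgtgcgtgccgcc
Mxd4: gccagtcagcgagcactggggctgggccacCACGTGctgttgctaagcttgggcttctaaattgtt
Mnt: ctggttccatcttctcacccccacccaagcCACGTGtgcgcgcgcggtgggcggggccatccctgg
Counting the annotated start as 0, the first base of the E-box lay at -3 in Max, -219 in Mxd4 and -123 in Mnt. The windows of Mycn, Mycl, Mxd1, Mxd3, Mga and the 3 starts of Mxi1 held no CACGTG, which says only that these letters are not in those windows. Of the 3 genes with the E-box, Mxd4 was higher in both CRY lines, while Max and Mnt did not pass the test in any comparison.

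Against CPN-/-, the antagonist Mxd4 was higher and the antagonist Mxi1 lower in both CRY lines, Mycn was lower in CPN-/- CRY1, and no difference passed the test for Myc, Max or Mnt. In CPN-/- CRY1, 3 of the 10 members were called at an adjusted p under 0.05, 1 higher and 2 lower. Over all tested genes 24.3% were called in this comparison, 11.2% higher and 13.1% lower. For CPN-/- CRY2, 2 of 10 were called, 1 higher and 1 lower, against 6.66% of all tested genes, 2.58% higher and 4.08% lower. Between CPN-/- CRY1 and CPN-/- CRY2, 2 of 10 were called, Mycl higher and Mycn lower in CPN-/- CRY1, against 16.3% of all tested genes, 7.72% higher and 8.57% lower. The median log2 fold changes of the 10 members were -0.06, 0.01 and -0.02 in the 3 comparisons, beside -0.007, -0.008 and -0.005 over all tested genes. Both comparisons with CPN-/- use the same CPN-/- libraries, so their values are set side by side and are not independent.

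**Figure D1:**
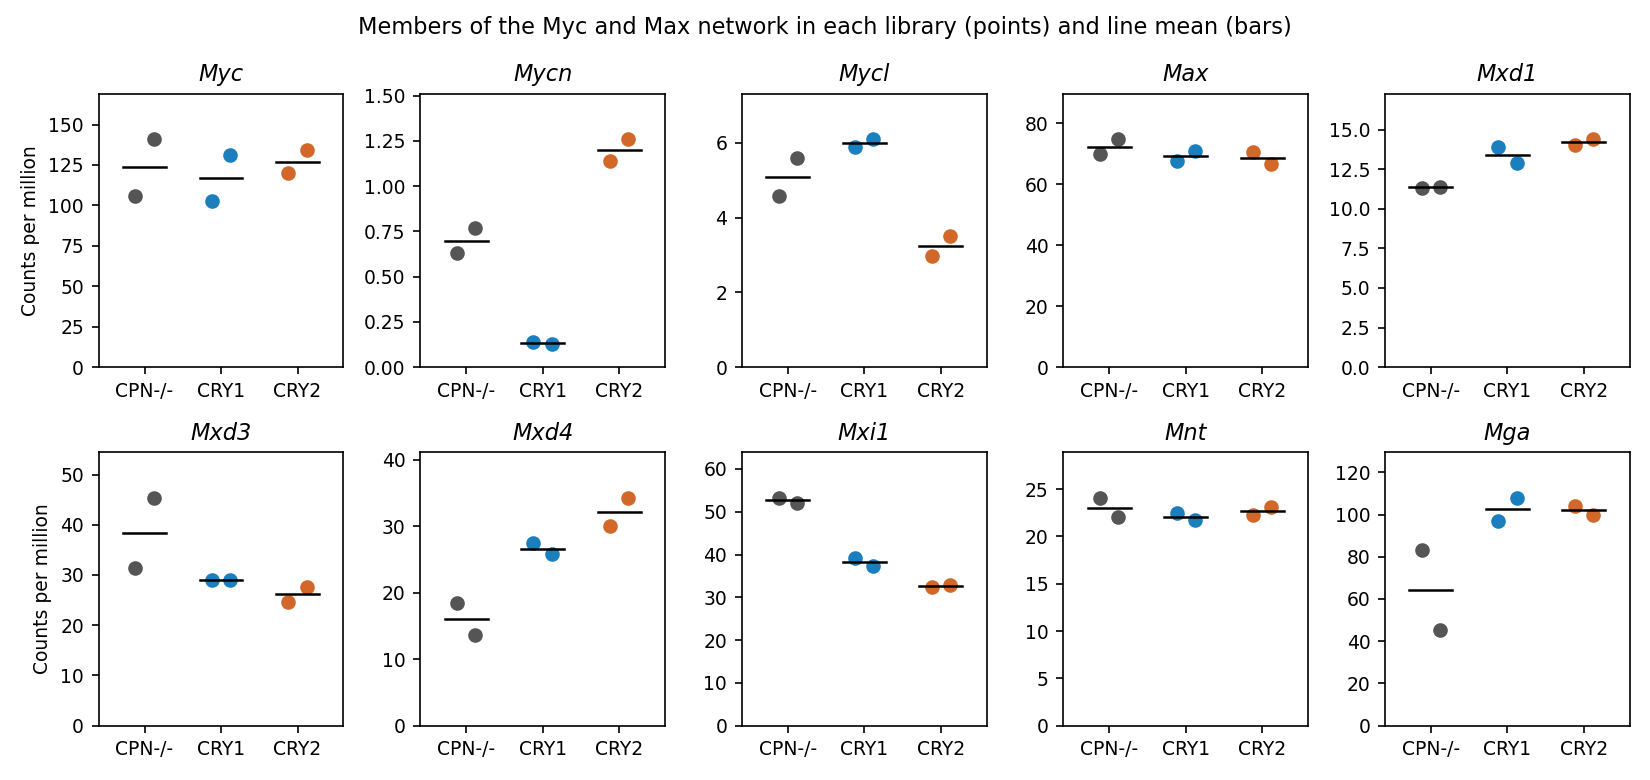
CPM (vertical axes, from 0) of the 10 members in each library. Points are single libraries of CPN-/-, CPN-/- CRY1 (CRY1) and CPN-/- CRY2 (CRY2) and bars are means of 2; Mycn is near 0 in CPN-/- CRY1, Mxd4 rises and Mxi1 falls from CPN-/- to the CRY lines, and Mga differs most between the CPN-/- libraries.

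Per kilobase of exon, Myc was the most abundant member, at a mean of 50.1 CPM per kb over the 6 libraries. Max followed at 35.8 and Mxd3 at 23.5 CPM per kb. The libraries of Myc ran from 42.1 to 57.7 and stayed above those of Max, which ran from 34.0 to 38.2, and the range of Mxd3 (18.6 to 34.2) just touched that of Max. Mga (6.43), Mxd4 (6.42), Mxi1 (6.18) and Mnt (4.93 CPM per kb) lay close together, and their library ranges overlapped. Mxd1 (2.78), Mycl (1.31) and Mycn (0.242 CPM per kb) were the least abundant, with ranges that did not overlap. Myc made up 96.2% to 97.6% of the summed level of Myc, Mycn and Mycl in every library. The summed level of the 6 antagonists was 50 and 56 CPM per kb in CPN-/-, 49.5 and 49.3 CPM per kb in CPN-/- CRY1, and 46.5 and 49.9 CPM per kb in CPN-/- CRY2. Divided by the summed MYC family, this gave 1.11 and 0.941, 1.13 and 0.895, and 0.925 and 0.889. The CPN-/- CRY1 range overlapped both others. Both CPN-/- CRY2 libraries lay below both CPN-/- libraries, but the nearest stood at 0.925 and 0.941. Between the CPN-/- libraries Myc differed by a factor of 1.33 and Mxd3 by 1.45.

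Myc, at chr15:61985341-61990361 on the forward strand with 3 exons, was measured with 3269 to 4025 counts per library. Levels of 106 and 141 CPM in the CPN-/- libraries compared with 103 and 131 CPM for CPN-/- CRY1, and 120 and 134 CPM for CPN-/- CRY2. The 3 lines overlapped, and replicates of CPN-/- differed by a factor of 1.33. Against CPN-/- it stood at -0.08 log2 units in CPN-/- CRY1 (SE 0.17, 95% interval -0.49 to 0.33, adjusted p = 0.74) and 0.04 in CPN-/- CRY2 (SE 0.17, interval -0.37 to 0.45, adjusted p = 0.9) in edgeR's quasi-likelihood test. Between the CRY lines it was -0.12 (interval -0.53 to 0.29, adjusted p = 0.7). A change of Myc mRNA inside these intervals was not detectable with 2 libraries per line. The signs of the Myc differences also turned when single libraries were left out, over a range of -0.28 to 0.14 in CPN-/- CRY1 and -0.15 to 0.27 in CPN-/- CRY2.

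Mycn, at chr12:12936093-12941836 on the reverse strand, is the form best known from the embryonic nervous system, and it was nearly silent here, with 4 to 34 counts per library. It gave 20 counts in each CPN-/- library, 5 and 4 counts in CPN-/- CRY1, and 31 and 34 counts in CPN-/- CRY2. In CPM these are 0.629 and 0.768, 0.138 and 0.13, and 1.14 and 1.26, and no 2 lines overlapped. CPN-/- CRY1 was 5.03-fold lower than CPN-/- (log2 fold change -2.33, SE 0.37, adjusted p = 0.0063). CPN-/- CRY2 was 1.73-fold above CPN-/-, which did not pass the test (log2 fold change 0.79, interval 0.19 to 1.38, adjusted p = 0.13). Set directly against each other, CPN-/- CRY1 was 8.69-fold lower than CPN-/- CRY2 (log2 fold change -3.12, SE 0.33, adjusted p = 0.0017), the widest difference of any member. The call between CRY lines was kept in all alternatives that tested Mycn, with adjusted p of 0.031 or less. The call against CPN-/- was lost without replicate 1 or without replicate 2 of CPN-/- CRY1 (log2 fold change -2.38 and -2.29). Fewer of all tested genes passed in those fits.

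Mycl, at chr4:122995588-123002490 on the forward strand, was present at a low level. It stood at 4.59 and 5.6 CPM in CPN-/-, 5.89 and 6.1 CPM in CPN-/- CRY1, and 2.98 and 3.52 CPM in CPN-/- CRY2. Thus CPN-/- CRY1 lay highest, CPN-/- CRY2 lowest and CPN-/- between them, with no overlap. Against CPN-/-, neither change passed the test, with log2 fold changes of 0.24 (interval -0.14 to 0.62, adjusted p = 0.3) in CPN-/- CRY1 and -0.64 (interval -1.06 to -0.23, adjusted p = 0.084) in CPN-/- CRY2. Between the CRY lines Mycl was 1.84-fold higher in CPN-/- CRY1 (log2 fold change 0.88, SE 0.17, adjusted p = 0.016). Mycl and Mycn thus differed between the CRY lines in opposite directions. When CPN-/- replicate 1 or 2 was left out, the CPN-/- CRY1 value was 0.1 and 0.39, and the CPN-/- CRY2 value was -0.79 and -0.49. The call between CRY lines was lost without replicate 1 or 2 of CPN-/- CRY1 (0.91 and 0.86). It was also lost without replicate 1 or 2 of CPN-/- CRY2 (0.77 and 1.01). Fewer of all tested genes passed in each of these fits.

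Max, the obligate partner, at chr12:76937269-76962323 on the reverse strand, stood at 69.9 and 74.8 CPM in CPN-/-, 67.7 and 71 CPM in CPN-/- CRY1, and 70.6 and 66.6 CPM in CPN-/- CRY2, and all lines overlapped. Its log2 fold changes were -0.06 (interval -0.29 to 0.16, adjusted p = 0.65), -0.08 (interval -0.3 to 0.15, adjusted p = 0.63) and, between CRY lines, 0.02 (interval -0.21 to 0.24, adjusted p = 0.94). The first and second turned positive, at 0.11 and 0.08, once the trend with transcript length was removed.

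Among the MXD antagonists, Mxd4, at chr5:34176580-34187710 on the reverse strand, was higher in both CRY lines. It stood at 18.4 and 13.6 CPM in CPN-/-, 27.4 and 25.8 CPM in CPN-/- CRY1, and 30.1 and 34.3 CPM in CPN-/- CRY2, with no overlap between lines. The rise over CPN-/- was 1.66-fold in CPN-/- CRY1 (log2 fold change 0.73, SE 0.16, adjusted p = 0.019) and 2.01-fold in CPN-/- CRY2 (1.01, SE 0.16, adjusted p = 0.014). The CRY lines did not differ past the threshold (-0.28, interval -0.65 to 0.1, adjusted p = 0.29), but were called apart in a fit to their own 4 libraries (-0.27, adjusted p = 0.0029). That fit called 3473 genes higher and 3365 lower, against 1086 and 1206 with all 6 libraries. Without CPN-/- replicate 1 or 2 the difference was -0.27 for each. In CPN-/- CRY1 the call was lost without replicate 1 or 2 of CPN-/- CRY1 (0.69 and 0.78). The CPN-/- CRY2 call was lost without replicate 1 or 2 of CPN-/- CRY2 (1.11 and 0.92) and without either CPN-/- CRY1 library (1.01). It was also lost in a fit to the 4 libraries of the comparison (1.01, adjusted p = 0.054). That fit called 147 genes higher and 326 lower, against 363 and 574 with all 6 libraries. Fewer of all tested genes also passed in the fits without a CRY library. Mxd4 shares 514 exon bases with the antisense gene Gm42846, and whether counting used strand is not given in the sources used here.

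Mxi1, at chr19:53310128-53373293 on the forward strand, fell in both CRY lines. It stood at 53.3 and 52.1 CPM in CPN-/-, 39.1 and 37.4 CPM in CPN-/- CRY1, and 32.3 and 32.8 CPM in CPN-/- CRY2. Replicates lay within a factor of 1.05 of each other, and the lines did not overlap. Mxi1 was 1.38-fold lower in CPN-/- CRY1 (log2 fold change -0.46, SE 0.09, adjusted p = 0.014) and 1.62-fold lower in CPN-/- CRY2 (-0.69, SE 0.09, adjusted p = 0.0065). The difference between CRY lines was 0.23 (interval 0.01 to 0.45, adjusted p = 0.14), and it was called in a fit to their own 4 libraries (0.23, adjusted p = 0.0038). That fit called 3473 genes higher and 3365 lower, against 1086 and 1206 with all 6 libraries. Without CPN-/- replicate 1 or 2 the difference was 0.23 for each. In CPN-/- CRY1 the call was lost without replicate 1 or 2 of CPN-/- CRY1 (-0.5 and -0.43) and without either CPN-/- CRY2 library (-0.46). It was also lost in the fit to 4 libraries (-0.46, adjusted p = 0.058), which called 778 genes higher and 1020 lower, against 1579 and 1844. The CPN-/- CRY2 call was lost without replicate 1 or 2 of CPN-/- CRY2 (-0.68 and -0.7). Fewer of all tested genes passed in each of these fits. Mxi1 shares 194 exon bases with Gm10197 on the opposite strand.

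Mxd1 and Mxd3 did not pass the test with all 6 libraries in the fit. Mxd1, at chr6:86647044-86669234 on the reverse strand and induced when many cells differentiate, stood at 11.3 and 11.4 CPM in CPN-/-, 13.9 and 12.9 CPM in CPN-/- CRY1, and 14 and 14.4 CPM in CPN-/- CRY2. Both CRY lines lay above CPN-/-, with log2 fold changes of 0.24 (interval -0.02 to 0.51, adjusted p = 0.14) and 0.33 (interval 0.06 to 0.59, adjusted p = 0.14). Mxd3, at chr13:55325170-55329900 on the reverse strand and linked to proliferating cells, stood at 31.4 and 45.4 CPM in CPN-/-, 28.9 and 28.9 CPM in CPN-/- CRY1, and 24.7 and 27.6 CPM in CPN-/- CRY2. Both CRY lines lay below CPN-/-, with log2 fold changes of -0.41 (interval -0.82 to 0.01, adjusted p = 0.13) and -0.55 (interval -0.97 to -0.13, adjusted p = 0.13). Without CPN-/- replicate 1 the Mxd3 values became -0.65 and -0.8, and without CPN-/- replicate 2 they became -0.11 and -0.26. The second Mxd1 value was 0.32 and 0.34 without CPN-/- replicate 1 or 2. The first was at 0.38, at the threshold itself (adjusted p = 0.05, under it before rounding), with chromosome medians removed. Mxd3 shares 105 exon bases with Prelid1 on the opposite strand.

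Mnt, a broadly expressed antagonist at chr11:74830806-74845725 on the forward strand, stood at 24.1 and 22 CPM in CPN-/-, 22.5 and 21.7 CPM in CPN-/- CRY1, and 22.3 and 23.1 CPM in CPN-/- CRY2. The lines overlapped, and the log2 fold changes were -0.06 (interval -0.31 to 0.19, adjusted p = 0.68), -0.03 (interval -0.27 to 0.22, adjusted p = 0.89) and -0.04 between CRY lines (interval -0.28 to 0.21, adjusted p = 0.87). Mga, at chr2:119872503-119970129 on the forward strand with 24 exons, stood at 83.2 and 45.2 CPM in CPN-/-, 96.9 and 108 CPM in CPN-/- CRY1, and 104 and 100 CPM in CPN-/- CRY2. All 4 CRY libraries lay above both CPN-/- libraries, which differed by a factor of 1.84. Its log2 fold change was 0.67 in each CRY line (interval 0.07 to 1.27, adjusted p = 0.096 in CPN-/- CRY1, and interval 0.06 to 1.27, adjusted p = 0.17 in CPN-/- CRY2). DESeq2 called it in CPN-/- CRY1 (0.68, adjusted p = 0.028) and not in CPN-/- CRY2 (0.67, adjusted p = 0.069). Without CPN-/- replicate 1 it was 1.18 in each, and without CPN-/- replicate 2 it was 0.3 in each. The size of the Mga difference thus rested on which CPN-/- library was used. Between the CRY lines the Mga difference was 0 (interval -0.6 to 0.6). Mga transcripts also hold stretches of at least 150 bases that are 95% or more identical to stretches in other genes, and how such reads were counted is not given in the sources used here.

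**Figure D2:**
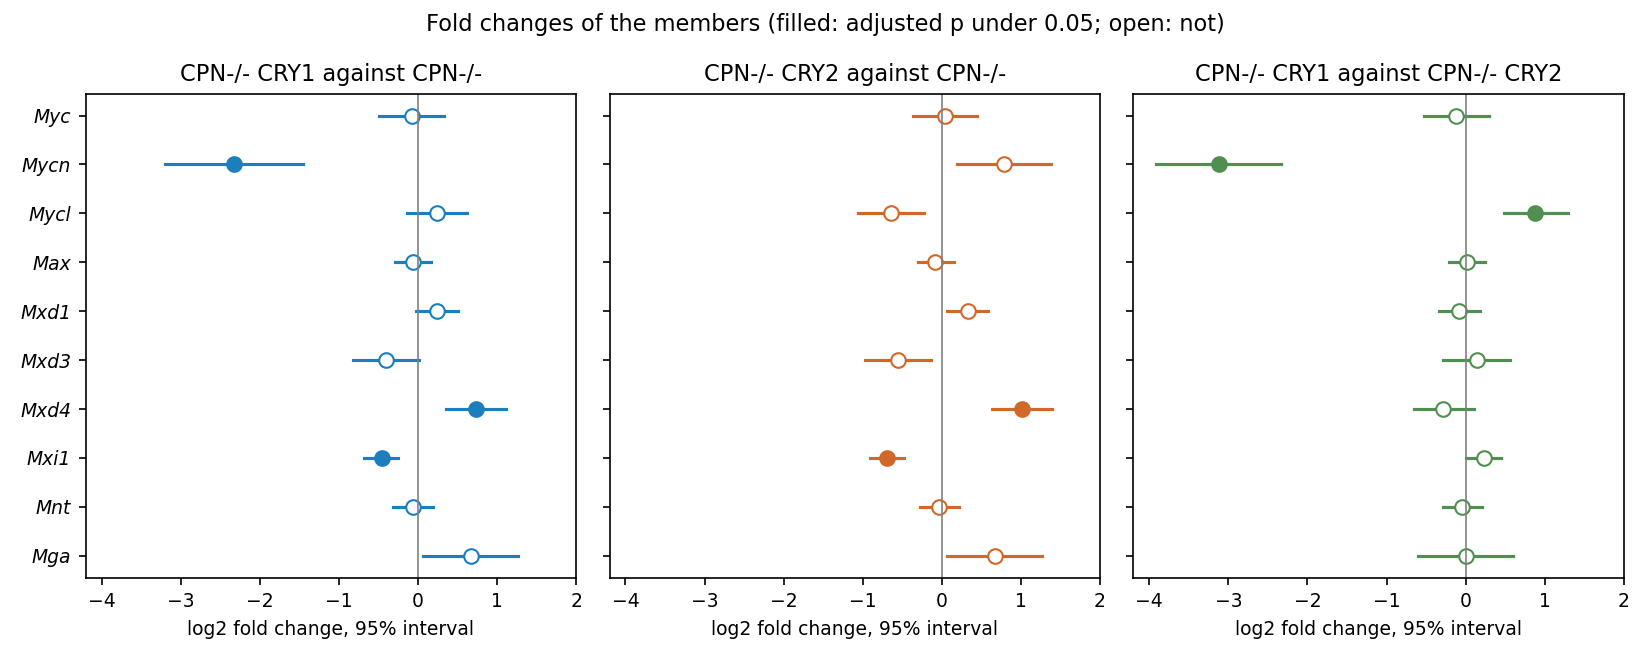
Log2 fold change (points) with its 95% interval (lines) for each member in the 3 comparisons, filled where the adjusted p is under 0.05. Mycn spans from -3.12 to 0.79, Mxd4 and Mxi1 are filled in both comparisons with CPN-/- on opposite sides of 0, and Myc, Max and Mnt are open and near 0.

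The length trend within CPN-/- was visible in the members. The log2 ratio of replicate 2 to replicate 1 ran from 0.53 for Mxd3, whose longest transcript has 1327 bases, to -0.88 for Mga, with 13931 bases, and was 0.41 for Myc, with 2338 bases. Over the 10 members its Spearman correlation with transcript length was -0.81 in CPN-/-, -0.26 in CPN-/- CRY1 and -0.35 in CPN-/- CRY2, given as a description of genes that share the same libraries. With the trend removed in all libraries, Mxd4 was still called in both CRY lines (0.71 and 1.0, adjusted p = 0.0014 and 0.00051), as were Mxi1 (-0.57 and -0.79, adjusted p = 0.0013 and 0.00057) and Mycn in CPN-/- CRY1 (-2.26, adjusted p = 0.0024). Mga then stood at 0.32 and 0.27 and passed in both (adjusted p = 0.0061 and 0.029), and in CPN-/- CRY2 so did Mxd3 (-0.35, adjusted p = 0.048) and Mycl (-0.63, adjusted p = 0.043). Myc did not pass, at 0.04 and 0.16. Over all genes, the same removal changed the calls in CPN-/- CRY1 from 1579 higher and 1844 lower to 3126 and 2482, and in CPN-/- CRY2 from 363 and 574 to 1441 and 1026.

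**Figure D3:**
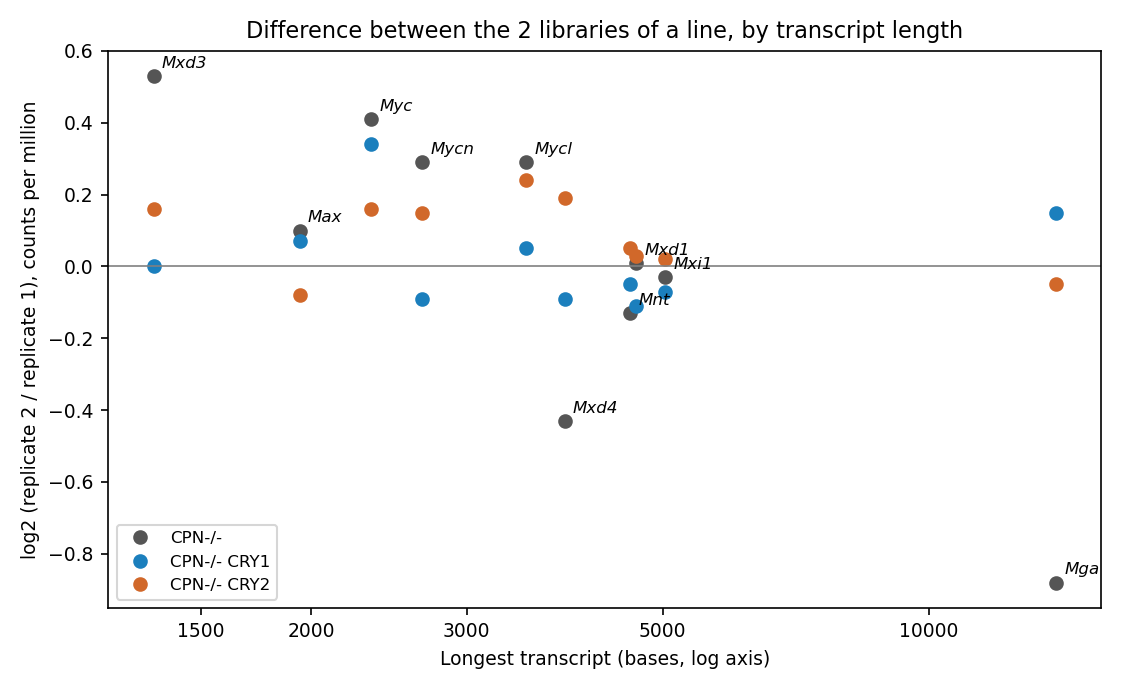
Log2 ratio of the 2 libraries of each line (vertical axis) against the longest transcript of each member (bases, log axis), with a point per member and line and names beside the CPN-/- points. In CPN-/- the ratio goes from 0.53 for Mxd3 to -0.88 for Mga, while the CRY lines stay between -0.11 and 0.34.

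Median changes differed between chromosomes in CPN-/- CRY1, and Myc and Mxi1 lie on 2 of the chromosomes whose medians moved most. Whether a shift runs along a whole chromosome was not tested. The other tested genes had a median change against CPN-/- of -0.36 log2 units on chromosome 15, which carries Myc, and 0.32 on chromosome 19, which carries Mxi1. The CPN-/- CRY2 medians were 0.05 and -0.17. Relative to its chromosome, Myc stood 0.28 above the median in CPN-/- CRY1 and 0.01 below it in CPN-/- CRY2 (difference -0.01). Mxi1 stood at -0.78 and -0.53 relative to chromosome 19, and with chromosome medians removed before the test it was still called in both lines (adjusted p = 0.0025 and 0.017). The same removal turned the Mxi1 difference between CRY lines from 0.23 to -0.23 (adjusted p = 0.18). With it, Myc was at 0.3 in CPN-/- CRY1 (adjusted p = 0.23), at -0.03 in CPN-/- CRY2 (adjusted p = 0.92) and at 0.33 between the CRY lines (adjusted p = 0.28). Chromosomal copy number was not measured, and its part in these medians was not tested.

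Over all tested genes, 11.2% were called higher and 13.1% lower in CPN-/- CRY1 against CPN-/-, and 2.58% and 4.08% in CPN-/- CRY2. Between the CRY lines these shares were 7.72% and 8.57%. The 5 tested genes on each side of Myc reached 2610 kb away. In CPN-/- CRY1 their median log2 fold change was -0.23 and 1 of 10 was called, Cyrib, a regulator of actin remodelling, at -0.6 (adjusted p = 0.008), a call lost without either CPN-/- CRY1 library. For CPN-/- CRY2 their median was 0.51 and 3 of 10 were called higher. These were Trib1 (0.58, adjusted p = 0.036), Lratd2 (0.87, adjusted p = 0.026) and 9930014A18Rik (0.77, adjusted p = 0.049). None of the 10 was called in the fit to 4 libraries. The median of the 10 was 0.54 and 0.31 without replicate 1 or 2 of CPN-/- CRY2. Between the CRY lines, 5 of 10 were lower in CPN-/- CRY1 (Nsmce2, Trib1, Lratd2, 9930014A18Rik and Cyrib), with a median of -0.56. The fit to 4 libraries called 8 lower. Without any 1 CRY library this median was between -0.65 and -0.4. With chromosome medians removed, the neighbours of Myc had medians of 0.15 and 0.43 against CPN-/-, with 0 and 1 called, in place of -0.23 and 0.51. The nearest, the noncoding RNA gene Pvt1, 52.6 kb away, was at -0.29 (adjusted p = 0.065) and -0.02 (adjusted p = 0.9) against CPN-/-. Around Mxi1, 4 of 10 neighbours were higher in CPN-/- CRY1 (Gsto1, Itprip, Smndc1 and Smc3) and 1 was lower, with a median of 0.37, while Mxi1 itself was lower. This became 1 higher and none lower in the fit to 4 libraries. Without any 1 CRY library the median of these neighbours was between 0.31 and 0.38. The nearest, the splicing factor gene Smndc1, 69.1 kb away, was at 0.39 (adjusted p = 0.029), and Nutf2-ps1, the neighbour that was lower, was at -0.42 (adjusted p = 0.032). For CPN-/- CRY2 none of the 10 neighbours of Mxi1 was called in edgeR's test, 2 were lower at an unadjusted p under 0.05, DESeq2 called 1 lower, and their median was -0.07. With chromosome medians removed, 1 neighbour was called higher and 1 lower in CPN-/- CRY1, and their medians were 0.05 and 0.08.

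**Figure D4:**
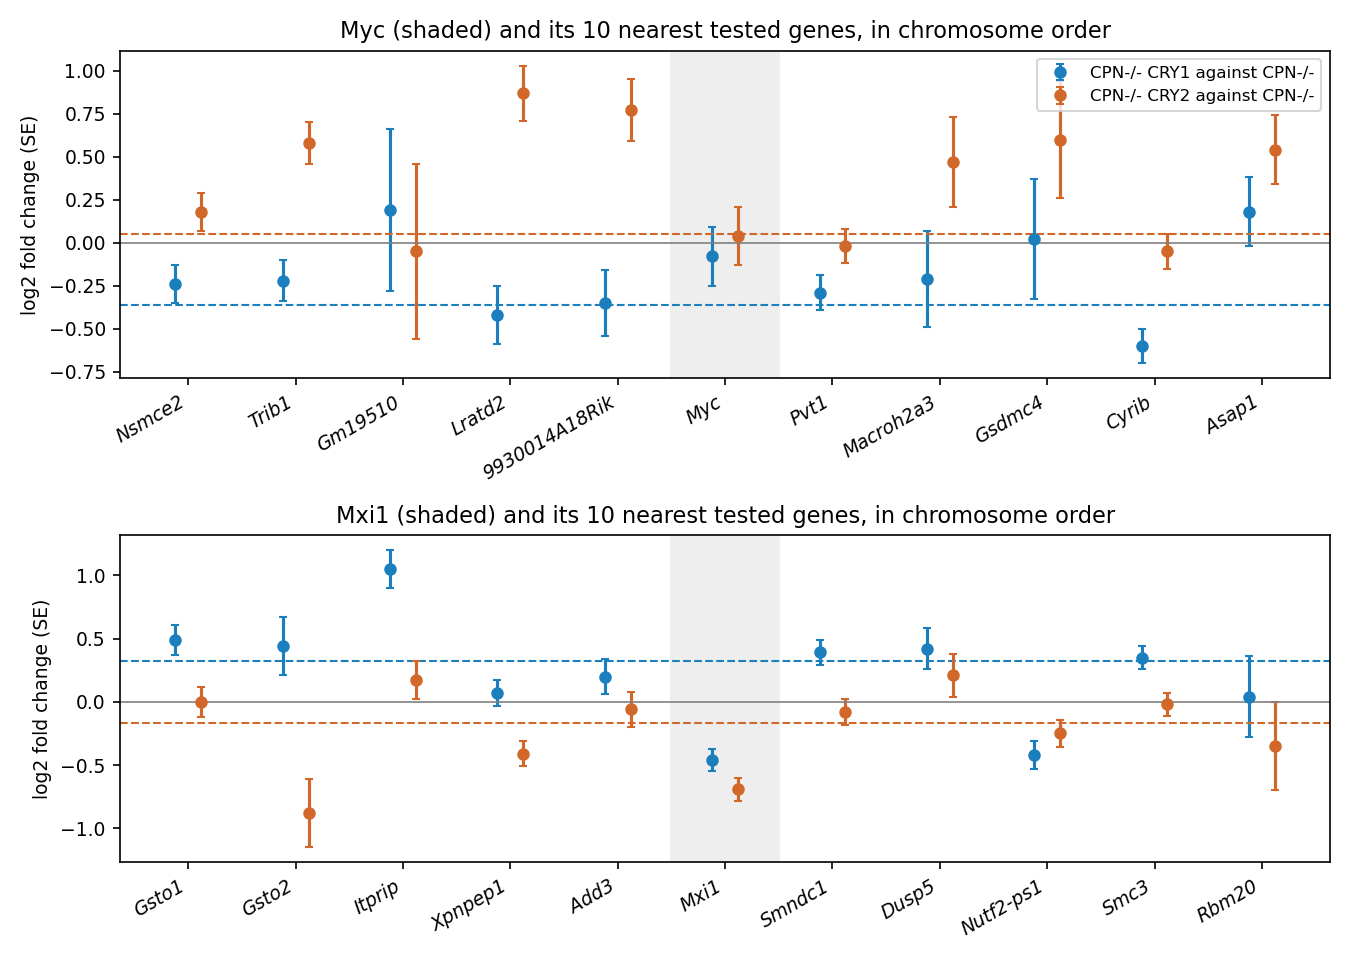
Log2 fold change with its SE for Myc and Mxi1 (shaded) and for the 5 tested genes on each side, in chromosome order, in CPN-/- CRY1 (blue) and CPN-/- CRY2 (orange) against CPN-/-. Dashed lines mark the chromosome medians of -0.36 and 0.05 for Myc and 0.32 and -0.17 for Mxi1, and Mxi1 lies below its neighbours' medians of 0.37 and -0.07 in both lines.

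Genes that work with the network were described from named lists. Fits to 4 libraries called 778 genes higher and 1020 lower in CPN-/- CRY1, against 1579 and 1844 with all 6 libraries. For CPN-/- CRY2 they called 147 and 326, against 363 and 574. Fewer genes were also called in both comparisons without any 1 CRY library. Of 3 genes of the MLX branch, which pairs with MXD and MNT proteins, 2 were tested. Mlx itself fell in CPN-/- CRY1 (log2 fold change -0.46, adjusted p = 0.021) but stood at -0.03 in CPN-/- CRY2 (adjusted p = 0.89). No gene of the branch was called against CPN-/- in the fits to 4 libraries. Of 11 MYC coactivators, 3 fell in CPN-/- CRY1 and 1 in CPN-/- CRY2. Over all tested genes 24.3% and 6.66% were called, 13.1% and 4.08% lower. With all 6 libraries, no coactivator rose against CPN-/- in edgeR's test, at an unadjusted p under 0.05 or in DESeq2. The coactivator medians were -0.02 and 0.03. Without CPN-/- replicate 1 the 11 genes had medians of 0 and -0.04, and of -0.11 and -0.03 without CPN-/- replicate 2. In fits to 4 libraries 2 of them fell in CPN-/- CRY1 and none in CPN-/- CRY2. Without replicate 1 or 2 of CPN-/- CRY1 the CPN-/- CRY1 median was -0.04 and 0. Without replicate 1 or 2 of CPN-/- CRY2 the CPN-/- CRY2 median was 0.06 and 0. Ruvbl2, a helicase-like ATPase, was the one that fell in both (-0.72 and -0.51, adjusted p = 0.0048 and 0.034), and the acetyltransferase gene Kat2a fell in CPN-/- CRY1 (-0.51, adjusted p = 0.0098), as did Ruvbl1 (-0.46, adjusted p = 0.04). None of the 9 corepressor genes that serve MXD and MNT was called in the edgeR fit used for the members. Their medians were -0.19 and -0.18 against CPN-/-. In CPN-/- CRY1, 1 was called lower with library size only, upper-quartile factors, no filter or chromosome medians removed. With the length trend removed, 1 was higher and 1 lower there. The length setting and the fit to 4 libraries each called 1 lower between the CRY lines. At an unadjusted p under 0.05, 1 was higher and 3 were lower in CPN-/- CRY1 and 1 was lower in CPN-/- CRY2, and DESeq2 called 1 lower in CPN-/- CRY1. Without CPN-/- replicate 1 the 9 genes had medians of -0.3 and -0.31, and of -0.06 and -0.07 without CPN-/- replicate 2. The most abundant of them, Rbbp7, a histone chaperone, was at -0.2 (adjusted p = 0.19) and -0.23 (adjusted p = 0.22).

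Of 10 partners of MGA, 2 rose and 3 fell in CPN-/- CRY1 and 1 rose in CPN-/- CRY2, with medians of -0.1 and 0.03, beside 24.3% and 6.66% of all tested genes called. Fits to 4 libraries called 2 partners higher and 1 lower in CPN-/- CRY1, beside 778 and 1020 of all genes. None was called in CPN-/- CRY2 in such a fit, beside 147 and 326. Without replicate 1 or 2 of CPN-/- CRY1 the CPN-/- CRY1 median was -0.12 and -0.07. For CPN-/- CRY2 the median was 0.01 and 0.06 without replicate 1 or 2 of that line. It was 0.04 and -0.01 without CPN-/- replicate 1 or 2. E2f6, the E2F that represses without the retinoblastoma protein, stood at 12 and 10.7 CPM in CPN-/-, 18.1 and 18.2 CPM in CPN-/- CRY1, and 17.5 and 17.3 CPM in CPN-/- CRY2. It rose in both lines (0.68 and 0.62, adjusted p = 0.0075 and 0.023). Pcgf6, the Polycomb subunit that defines the MGA complex, rose in CPN-/- CRY1 (0.64, adjusted p = 0.0075) and was at 0.05 in CPN-/- CRY2 (adjusted p = 0.8), and it lies on chromosome 19, where the median was 0.31 and -0.17. In CPN-/- CRY1 Yaf2 and Cbx3 fell (-0.56 and -0.4, adjusted p = 0.0077 and 0.045). L3mbtl2, named here after its value was seen, fell too (-0.34, adjusted p = 0.049). Yaf2 and L3mbtl2 lie on chromosome 15, where the median was -0.36. With chromosome medians removed, 1 partner rose and none fell in CPN-/- CRY1.

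Of 13 genes that act on MYC protein turnover, 2 rose and 1 fell in CPN-/- CRY1 and 1 rose in CPN-/- CRY2. Over all tested genes 24.3% and 6.66% were called. The medians of the 13 were 0.03 and 0.15. None of them was called in either line in the fits to 4 libraries, which called 778 genes higher and 1020 lower in CPN-/- CRY1. For CPN-/- CRY2 that fit called 147 and 326. Without any 1 CRY library the medians of the 13 were -0.02 to 0.04 and 0.15 to 0.2. Gsk3b, whose kinase marks MYC for breakdown, stood at 112 and 73.9 CPM in CPN-/-, 149 and 153 CPM in CPN-/- CRY1, and 115 and 106 CPM in CPN-/- CRY2. It rose in CPN-/- CRY1 (0.7, adjusted p = 0.038), as did Cip2a, whose product protects MYC (0.48, adjusted p = 0.022), and both lie on chromosome 16, where the median was 0.27. Skp2, an F-box subunit that marks MYC, fell in CPN-/- CRY1 (-0.35, adjusted p = 0.04), on chromosome 15 with its median of -0.36. Fbxo32 rose in CPN-/- CRY2 (0.6, adjusted p = 0.047), where its 2 libraries stood at 21.3 and 23.6 CPM against 16.3 and 13.2 CPM in CPN-/-. With chromosome medians removed, none of the 13 was called in either line. Without CPN-/- replicate 1 their medians were 0.12 and 0.2, and without CPN-/- replicate 2 they were -0.04 and 0.01.

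Of 32 growth genes known to be induced by MYC, 6 fell and none rose in CPN-/- CRY1, against 13.1% called lower over all tested genes. In CPN-/- CRY2 1 of them fell, against 4.08%. At an unadjusted p under 0.05, 2 were higher and 9 lower in CPN-/- CRY1, and DESeq2 called 8 lower and none higher. Their medians were -0.14 and -0.1. In the fits to 4 libraries 2 fell in CPN-/- CRY1, beside 1020 of all genes, and none in CPN-/- CRY2, beside 326. Without any 1 CRY library the medians were -0.18 to -0.11 and -0.11 to -0.08. Without CPN-/- replicate 1 the medians were -0.22 and -0.18, and without CPN-/- replicate 2 they were -0.07 and 0.02. With the length trend removed, 3 rose and 7 fell in CPN-/- CRY1 and 3 rose and 1 fell in CPN-/- CRY2. Srm, the spermidine synthase gene, fell in CPN-/- CRY1 (log2 fold change -1.07, adjusted p = 0.0015) and stood at -0.29 in CPN-/- CRY2 (adjusted p = 0.18). Bop1, needed for ribosome assembly, fell in CPN-/- CRY1 (-0.94, adjusted p = 0.0014), on chromosome 15 with its median of -0.36, and Odc1, the first enzyme of polyamine synthesis, fell as well (-0.52, adjusted p = 0.026). Tfrc, the transferrin receptor gene, was the one that fell in CPN-/- CRY2 (-0.68, adjusted p = 0.042). The 8 genes known to be repressed by MYC moved both ways, with 1 higher and 4 lower in CPN-/- CRY1 and 3 higher and 3 lower in CPN-/- CRY2, beside 24.3% and 6.66% of all tested genes called. These became 1 and 1 in CPN-/- CRY1 without CPN-/- CRY1 replicate 2, and for CPN-/- CRY2 none without either of its own libraries and 1 and 1 in the fit to 4 libraries or without either CPN-/- CRY1 library. Ndrg1, a stress-induced gene, stood at 133 and 144 CPM in CPN-/-, 38 and 34.6 CPM in CPN-/- CRY1, and 88.1 and 90.7 CPM in CPN-/- CRY2, and fell in both (-1.93 and -0.64, adjusted p = 0.00017 and 0.012). Ndrg1 lies on chromosome 15, with its median of -0.36 in CPN-/- CRY1. Ndrg2 fell in both (-1.63 and -1.64, adjusted p = 0.008 and 0.018). The DNA damage response gene Gadd45a also fell in both (-1.12 and -0.77, adjusted p = 0.0045 and 0.035). The cyclin-dependent kinase inhibitor gene Cdkn1c rose in CPN-/- CRY2 (1.22, adjusted p = 0.045), at 1.23 and 1.15 CPM in CPN-/- and 2.9 and 2.67 CPM in CPN-/- CRY2. The others that passed, named after their values were seen, were Cdkn1a, which rose in both (1.04 and 0.56, adjusted p = 0.00068 and 0.013), and Gas1, which fell in CPN-/- CRY1 and rose in CPN-/- CRY2 (-0.48 and 0.69, adjusted p = 0.027 and 0.018).

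Among 11408 genes that averaged 100 counts or more, the gene whose centred log2 CPM lay nearest to that of Myc over the 6 libraries was one with no symbol in the reference (NCBI Gene 100503122), at a Euclidean distance of 0.0971. Rfxap, an activator of MHC class II genes, and Fancf, of the Fanconi anaemia DNA repair pathway, followed at 0.168 and 0.177. The median distance was 0.619. The measure takes in differences between replicates as well as between lines. For Myc the log2 ratio of replicate 2 to replicate 1 was 0.41 in CPN-/-, 0.34 in CPN-/- CRY1 and 0.16 in CPN-/- CRY2.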

How the data were processed

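The deposited files hold raw counts per gene for each of 6 libraries, made by the authors from stranded mRNA libraries aligned to mm10 with RNA STAR and counted with featureCounts; the annotation, strand setting and treatment of multiply mapped reads are not given in the sources used here. Counts were tested with edgeR 4.0.16 in R 4.3.3 (quasi-likelihood test, TMM factors, filterByExpr, all 6 libraries in one fit, Benjamini-Hochberg adjustment over 14069 genes, called at an adjusted p under 0.05). CPM use TMM-scaled totals, and levels per kb use the union of exons of coding transcripts in GENCODE for GRCm38. Transcript lengths were found for 94.2% of tested genes. The scripts were tested on simulated data. Lines came from the sample titles and genotypes. No per-sample column was left unused.

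The members and lists were chosen with earlier results of these data known, and 1 gene was left out of the lists and is not reported here. Named beside the members were, for each list, up to 4 called genes with the largest change against CPN-/-, or the most abundant gene where none was called, 5 tested neighbours on each side of Myc and Mxi1, and the 3 genes most like Myc. Alternatives were DESeq2 1.42.0, other size factors and filters, 4-library fits, stricter thresholds, a replicate block, left-out libraries, and removal of length trends or chromosome medians. In fits that left out a library, the remaining library of that line was assumed to vary like the others. Calls in those fits therefore do not carry that line's own spread. Loess with a span of 0.5 gave the length trend. With 2 libraries per line, precision is limited by their spread, and for members with fewer counts, such as Mycn and Mycl, also by counting.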

Additional observations from a re-analysis of the deposited data

Results flagged for a closer look

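For Mycn and Mycl the direct test between the 2 CRY lines passed, so their differences from CPN-/- were not the same in both lines. For Mycn, CPN-/- CRY1 minus CPN-/- CRY2 gave -3.12 log2 units (adjusted p = 0.0017 in edgeR's quasi-likelihood test), with 5 and 4 counts against 31 and 34. For Mycl the same difference was 0.88 log2 units (adjusted p = 0.016), with 5.89 and 6.1 CPM against 2.98 and 3.52 CPM. With 2 libraries per line, a library could not be tested for standing apart from its group.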

How the results depend on the processing

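Over 18 alternatives and 3 comparisons, 464 fold changes of members kept their direction and side of the threshold, 28 fell short of it, 22 newly passed it and 23 changed sign. Genes called in CPN-/- CRY1 against CPN-/- (3423) became 1798 with only the 4 libraries of the comparison, 1184 at an adjusted p under 0.01, 1089 with a threshold of 1 log2 unit on the change and 5608 with the length trend removed. In CPN-/- CRY2 (937) they became 583 with 10 counts required in every library, 473 with 4 libraries, 363 at 0.01, 526 with the fold threshold and 2467 with the length trend removed. Between the CRY lines (2292) they became 6838, 854, 828 and 4497 under the 4-library, 0.01, fold and length settings, and 1472 with chromosome medians removed. Members called in CPN-/- CRY1 (3) became 1 at 0.01 and 1 with the fold threshold. In CPN-/- CRY2 (2) they became 1 with 4 libraries, 1 at 0.01, 1 with the fold threshold and 5 with the length trend removed. Between the CRY lines (2) they became 1 with 10 counts in every library, where Mycn was not tested, 4 with 4 libraries, 1 at 0.01 and 1 with the fold threshold.

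Leaving out 1 library, genes called ranged from 663 to 8980, from 199 to 8046 and from 475 to 6897 in the 3 comparisons, and members from 0 to 5, from 0 to 6 and from 1 to 4. The highest counts came without CPN-/- replicate 1 and the lowest without CPN-/- CRY1 replicate 2, CPN-/- CRY2 replicate 1 and CPN-/- CRY1 replicate 1. The cause was not tested. Over these fits Myc ran from -0.28 to 0.14, from -0.15 to 0.27 and from -0.3 to 0.04, Mnt from -0.12 to 0.01 and from -0.08 to 0.04 against CPN-/-, and between CRY lines Max ran from -0.03 to 0.06 and Mga from -0.07 to 0.08. With chromosome medians removed, Myc was at 0.3, -0.03 and 0.33, Mnt at 0.03 in CPN-/- CRY1 and 0.06 between CRY lines, and between CRY lines Mxd1 at 0.05 and Mxi1 at -0.23. With the length trend removed, Myc was at 0.04 in CPN-/- CRY1 and Max at 0.11 and 0.08 in CPN-/- CRY1 and CPN-/- CRY2. With upper-quartile factors Mga was at -0.01 between CRY lines. No value that changed sign had passed the test.

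With the replicate number as a block (replicate block), 3458, 977 and 2188 genes and 3, 2 and 2 members were called. The deviations of same-numbered libraries correlated at -0.08, 0.14 and -0.03, so these libraries share only a number, and the fits without the block were used.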
